A study of Sus scrofa with 6 samples.

Results

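Expression of 10 genes of solute carrier family 22 (SLC22), the organic ion transporters, was examined on chromosome 2 of the pig in whole embryos at embryonic day 21. These were SLC22A12, SLC22A8, SLC22A6, SLC22A4, SLC22A5 and 5 unnamed loci of the same family, LOC100513779, LOC100737764, LOC100514700, LOC110259398 and LOC100737875. They are 10 of the 16 loci of the chromosome whose annotated product is a family 22 member. The list was selected on the difference between parthenogenetic and control embryos in these same samples, so values of the 10 genes in that comparison are a description and carry no test. The parthenogenetic embryos (PA, n = 3) came from oocytes of LYD pigs (a cross of Landrace x Yorkshire x Duroc) that were matured in vitro, activated by an electric pulse and carried by surrogate gilts, so that both genome copies are maternal. The control embryos (CN, n = 3) came from natural mating and were labelled with the same LYD strain. For these controls the study's methods name LY gilts (Landrace x Yorkshire) as dams and do not give the breed of the boars. No embryo received any other treatment, and embryos of similar size were collected at day 21 in both groups. The study's methods name a pair of gilts per group and do not give the dam of an embryo, so embryos of a group may be littermates, and the groups differ in conception, culture and dams as well as in parental origin of the genome.

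Proteins of this family carry small charged molecules across the cell membrane. SLC22A6 (OAT1) and SLC22A8 (OAT3) take up organic anions, drugs among them, from blood into the proximal tubule cell of the kidney. SLC22A12 (URAT1) reabsorbs urate at the opposite, luminal side of that cell. SLC22A4 (OCTN1) carries ergothioneine, SLC22A5 (OCTN2) carries carnitine, and both are made in many tissues. At this age the pig embryo has a large working mesonephros, whose tubules carry transporters of the proximal tubule.

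The 5 unnamed loci lay in a row on the minus strand and shared a short sequence before their coding regions. The annotation gives their products as member 9 for LOC100513779, member 10 or 10-like for LOC100737764, LOC100514700 and LOC100737875, and member 24-like for LOC110259398. The 250 bases before each annotated start were read from Sscrofa11.1, and the 4 windows of listed genes with a match to either of 2 motifs of tubule and liver transcription factors are shown, 5′ to 3′ on the gene's strand, with each match in capitals. They span chr2:8603554-8603803, chr2:8628613-8628862, chr2:8716756-8717005 and chr2:8750829-8751078 in the order printed.
LOC100513779: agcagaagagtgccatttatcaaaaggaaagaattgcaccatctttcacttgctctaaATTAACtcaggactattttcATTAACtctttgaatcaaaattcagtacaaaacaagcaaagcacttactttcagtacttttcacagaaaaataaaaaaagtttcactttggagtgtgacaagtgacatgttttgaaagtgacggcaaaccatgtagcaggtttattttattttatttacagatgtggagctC
LOC100737764: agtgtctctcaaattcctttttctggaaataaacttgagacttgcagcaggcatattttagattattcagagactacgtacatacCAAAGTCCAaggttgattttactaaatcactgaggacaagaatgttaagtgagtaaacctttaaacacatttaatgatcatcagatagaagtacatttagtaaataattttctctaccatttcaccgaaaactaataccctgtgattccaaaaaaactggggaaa
LOC110259398: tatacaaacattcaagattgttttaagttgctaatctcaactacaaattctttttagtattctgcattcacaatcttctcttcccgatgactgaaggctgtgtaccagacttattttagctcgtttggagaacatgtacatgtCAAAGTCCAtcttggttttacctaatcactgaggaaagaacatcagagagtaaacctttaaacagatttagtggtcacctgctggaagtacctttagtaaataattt
LOC100737875: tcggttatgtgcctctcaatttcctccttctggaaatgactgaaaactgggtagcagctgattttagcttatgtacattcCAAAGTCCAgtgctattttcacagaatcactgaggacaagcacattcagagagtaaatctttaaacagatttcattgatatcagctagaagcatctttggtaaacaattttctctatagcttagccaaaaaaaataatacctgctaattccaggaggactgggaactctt
The motifs were CAAAGTCCA, a core of HNF4 sites, and GTTAAT, a part of HNF1 sites, which were searched on both strands from 250 bases before to 50 after the start and do not overlap each other. In LOC100513779 the capitals mark 2 HNF1 matches on the opposite strand and, at the last base, the beginning of an HNF4 match that runs into the transcript. LOC100737764, LOC110259398 and LOC100737875 each had 1 HNF4 match, at 165, 107 and 170 bases before the start. Of 1997 windows of protein-coding genes on the chromosome, 0.65% held the HNF4 core and 6.51% the HNF1 letters. The windows of SLC22A12, LOC100514700, SLC22A8, SLC22A6, SLC22A4 and SLC22A5 held neither motif. Nor did those of LOC110255291 and LOC102164585, unlisted family loci that continue the row on the minus strand beyond LOC100513779. The wider search below did not cover these unlisted loci. A TATA box, TATAAA, was searched in the same way and was found in 12.42% of all windows and in none of the 16 family windows.

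A wider search of the 10 genes, made after these matches were seen and covering 5000 bases on either side of the start, placed the HNF4 core in LOC100514700 as well, 150 bases past its annotated start and inside its first exon. Its annotated start lies 467 bases before the coding region, against 161 to 330 bases in the other 4 loci. Counted from the first coding base, the core stood 317 bases upstream in LOC100514700 and LOC110259398 and 331 bases upstream in LOC100513779, LOC100737764 and LOC100737875. Within 250 bases on either side of the annotated start, 0.75% of the 1997 genes held this core. The wider search also found it in LOC100737764 at positions -4914 and -3278 from the start, and no share over all genes was computed for that span. The 30 bases around it are shown for the 5 loci on the minus strand, with the core in capitals, at chr2:8603534-8603563, chr2:8628757-8628786, chr2:8704786-8704815, chr2:8716842-8716871 and chr2:8750978-8751007.
LOC100513779: tgtggagctCAAAGTCCAatgccacttcag
LOC100737764: cgtacatacCAAAGTCCAaggttgatttta
LOC100514700: tgtacatgtCAAAGTCCAtcttggttttac
LOC110259398: tgtacatgtCAAAGTCCAtcttggttttac
LOC100737875: tgtacattcCAAAGTCCAgtgctattttca
All 21 flanking bases were identical between LOC100514700 and LOC110259398, and 5 of them were the same in all 5 loci. The 250-base windows of LOC100737764, LOC110259398 and LOC100737875 aligned to each other at 74.7% to 77.7% identity. The matches are letters in the reference sequence, and no binding was measured here.

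The listed genes lay in 3 places. SLC22A12 stood alone at chr2:7557822-7565801 on the minus strand. LOC100513779 (8580673 to 8603553), LOC100737764 (8609119 to 8628612), LOC100514700 (8685799 to 8704956), LOC110259398 (8715193 to 8716755) and LOC100737875 (8734036 to 8750828) followed, all on the minus strand, with SLC22A8 (8782030 to 8800998) and SLC22A6 (8809547 to 8817124) next to them on the plus strand, so that 7 genes fell within 236.5 kb. SLC22A4 (134594843 to 134641403) and SLC22A5 (134660741 to 134847575) lay 19.3 kb apart near the other end of the chromosome. The annotated proteins of 9 of the genes have 525 to 648 residues, while that of LOC110259398, a model of 2 exons, has 195.

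Protein identity followed this grouping. LOC100514700 and LOC110259398 shared 91.3% of 195 aligned residues, LOC100737764 shared 78.9% with LOC100514700 and 75.8% with LOC100737875, and SLC22A4 shared 75.6% with SLC22A5. SLC22A8 and SLC22A6 shared 49.5%. Near-identical copies make the split of reads uncertain. Of the 31-base stretches in LOC110259398 transcripts, 86.85% occurred in another gene of the chromosome, 575 of 768 of them in LOC100514700, so values of LOC110259398 are uncertain. The shares were 33.88% for LOC100514700, 21.93% for LOC100513779, 13.58% for LOC100737764, 8.46% for SLC22A4, 7.95% for LOC100737875 and 3.71% for SLC22A5, and under 1% for SLC22A12, SLC22A6 and SLC22A8. The library kit does not mark strand, and exons of LOC100513779, LOC100514700, SLC22A4 and SLC22A5 overlapped exons of another gene by 215, 94, 174 and 63 bases, where reads cannot be told apart.

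**Figure D1:**
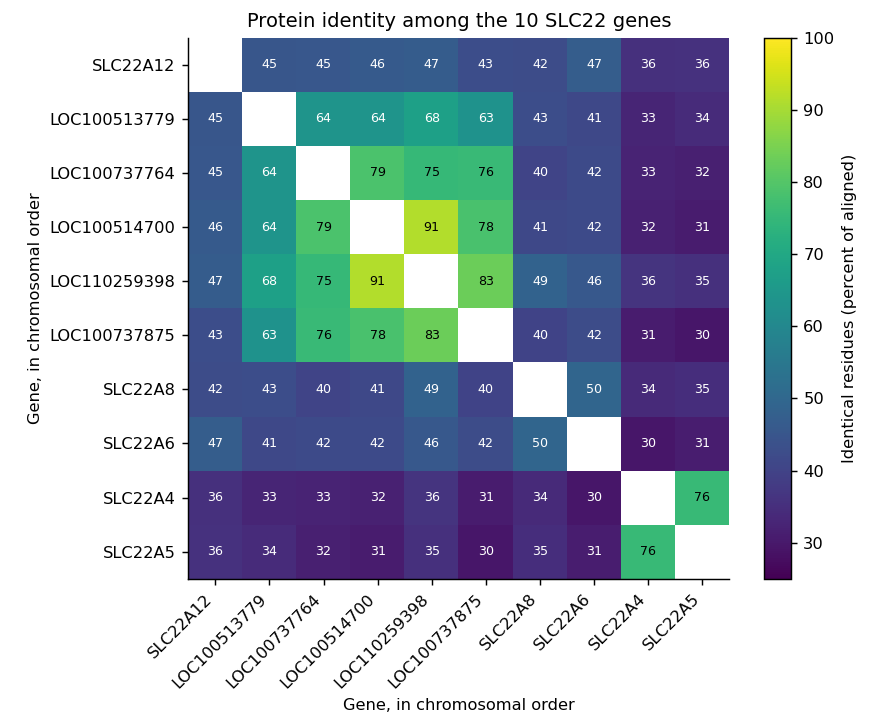
Percent of aligned residues that were identical between each pair of the 10 proteins, in chromosomal order on both axes. The 5 unnamed loci form a block at 63.1% to 91.3%, and SLC22A4 and SLC22A5 pair at 75.6%.

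The authors deposited, for each embryo, an estimated count and a TPM value (a level per transcript length, scaled to the same total in each embryo) for every transcript. The estimated counts summed to 3100284 to 3573406 per embryo, and 99.65% to 99.71% of them lay on chromosome 2, so TPM is relative to that chromosome. At this depth 3 counts, taken as the smallest detectable amount, equalled 0.840 to 0.968 CPM, the count scaled to the library total. Counting error alone underlies that floor. Liver, muscle, erythroid and tubule genes were all measured, while summed TPM of the gut genes MUC2, MUC5AC and MUC6 did not exceed 1.02 in any embryo. Gene counts of PA and CN were compared with edgeR's quasi-likelihood test over 1652 genes, and a gene was counted as differing when its adjusted p-value was below 0.05 and its absolute log2 fold change above 1.

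Of the 10 SLC22 genes, all entered the fit and 7 passed both thresholds, against 2.91% of all genes tested. Of the 7, 6 were lower in PA (SLC22A12, LOC100514700, LOC110259398, SLC22A8, LOC100737764 and LOC100513779), where the background was 2.78%, and LOC100737875 was higher, where the background was 0.121%. SLC22A6, SLC22A4 and SLC22A5 did not pass. SLC22A12 and LOC110259398 entered the fit through CN alone, as 0 of their PA embryos reached the count level of the expression filter. LOC100513779 and LOC100514700 reached it in all 3 CN embryos but in only 1 and 2 PA embryos, so they too entered because of CN. TPM of the CN and PA embryos did not overlap in 9 of the 10 genes, SLC22A6 being the exception, and in 21.6% of all genes tested. Because the list was chosen by this comparison, nothing is read from these shares. The count of members passing was 5 without CN1, 4 without CN2, 4 without CN3, 5 without PA1, 6 without PA2 and 5 without PA3. LOC100513779, LOC110259398 and LOC100737875 were the genes that moved below a threshold in these fits. In a bulk sample of a whole embryo, fewer cells of a type and less RNA per cell cannot be told apart. Labels do not say that the embryos of a group had separate dams, so the spread between embryos may understate that between litters.

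**Figure D2:**
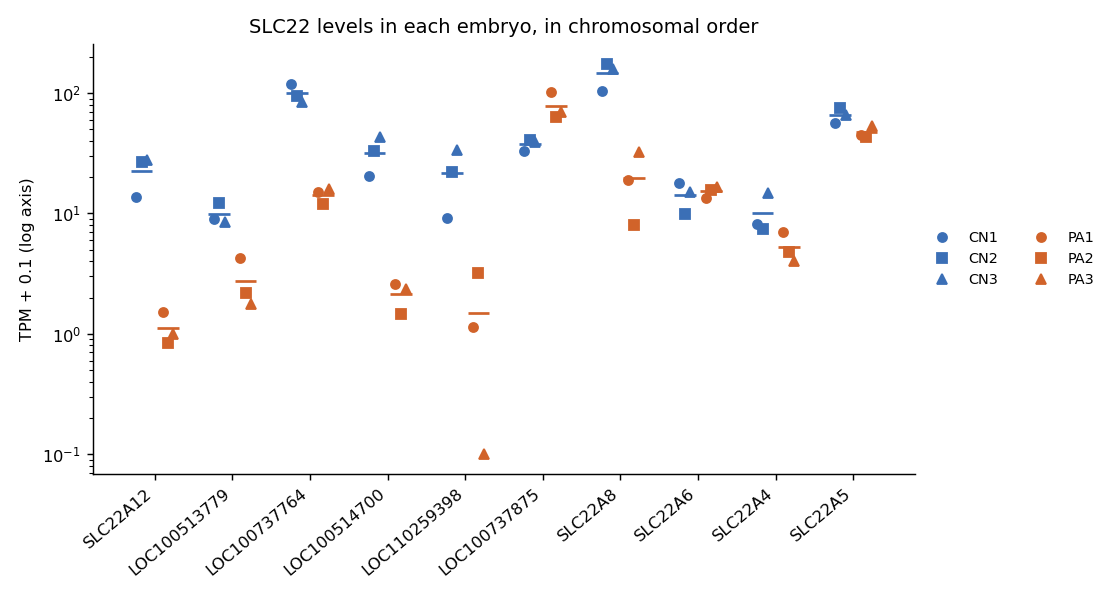
TPM + 0.1 of each SLC22 gene on a log axis, with a point for each embryo (blue CN, orange PA) and a bar at the group mean. CN and PA points separate in 9 genes, with PA above CN in LOC100737875, and mix in SLC22A6.

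SLC22A8, the basolateral organic anion transporter OAT3, was the most abundant of the 10 genes in CN. Its TPM was 104, 176 and 158 in CN1, CN2 and CN3 and 18.9, 7.90 and 32.0 in PA1, PA2 and PA3. All PA embryos lay below all CN embryos, and PA2 was the lowest. The means were 146.0 ± 37.7 (SD, n = 3) in CN and 19.6 ± 12.1 in PA, a 7.45-fold lower level, and the fitted log2 fold change was -2.82 (SE 0.38). The estimate ranged from -3.24 to -2.46 over the alternative fits.

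SLC22A6, the partner transporter OAT1 that begins 8.5 kb after the end of SLC22A8, overlapped between the groups. Its TPM was 17.9, 9.86 and 14.9 in CN and 13.5, 15.7 and 16.4 in PA, with CN2 the lowest and CN1 the highest of the 6. The means of 14.2 ± 4.08 and 15.2 ± 1.54 (SD, n = 3) gave a fitted log2 fold change of 0.13 (SE 0.29). With 26 to 55 counts per embryo the estimate ranged from -0.10, when CN2 was left out, to 0.42, so its sign is not fixed. In CN the SLC22A8 level per length exceeded that of SLC22A6 in every embryo, while in PA2 SLC22A6 was the higher, at 15.7 against 7.90 TPM.

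SLC22A12, the luminal urate transporter URAT1, had a 22.2-fold lower mean TPM in PA. It had 59, 113 and 129 counts in CN and 7, 3 and 4 in PA, which correspond to TPM of 13.5, 26.7 and 27.6 and of 1.42, 0.745 and 0.893. CN1 was the lowest control, and still far above each PA embryo. The means were 22.6 ± 7.89 and 1.02 ± 0.357 TPM (SD, n = 3), and the log2 fold change was -4.32 (SE 0.39). PA2 stood at the floor of 3 counts, so the PA level is close to the limit of detection.

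LOC100737764 (member 10) was the second most abundant gene in CN. Its TPM was 120 in CN1, 94.8 in CN2 and 84.9 in CN3, and 14.9, 11.8 and 15.7 in the PA embryos. CN1, the lowest control for SLC22A8 and SLC22A12, was here the highest. The mean was 99.8 ± 17.8 in CN and 14.1 ± 2.08 in PA (SD, n = 3), 7.07-fold lower, with a log2 fold change of -2.77 (SE 0.23). This estimate stayed between -2.87 and -2.52 in the alternative fits.

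LOC100514700 (member 10) and its near copy LOC110259398 (member 24-like) were both lowest in CN1 and highest in CN3 among the controls. LOC100514700 had TPM of 20.4, 32.7 and 42.8 in CN and of 2.50, 1.35 and 2.27 in PA. Its means of 32.0 ± 11.2 and 2.04 ± 0.610 (SD, n = 3) differed 15.7-fold, with a log2 fold change of -3.86 (SE 0.35). LOC110259398 had 11.7, 24.7 and 40.6 estimated counts in CN and 1.4, 4.0 and 0.0 in PA. Only CN embryos carried it past the expression filter, and PA1 and PA3 lay under the floor of 3 counts. Its fitted log2 fold change of -3.90 (SE 0.76) had the widest error of the 10 genes, and it did not pass both thresholds without CN2 (-3.90), CN3 (-3.42), PA1 (-3.67) or PA3 (-3.31). Without PA2, which held most of the PA counts, the estimate was -5.42.

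LOC100513779 (member 9) was low in both groups. Its TPM was 8.93, 12.1 and 8.46 in CN and 4.15, 2.09 and 1.68 in PA, and PA1 stood nearest to the controls. The means of 9.82 ± 1.96 and 2.64 ± 1.32 (SD, n = 3) differed 3.72-fold, and the log2 fold change was -1.79 (SE 0.40). It did not pass both thresholds without CN1 (-1.79), CN2 (-1.67), CN3 (-1.87), PA2 (-1.65) or PA3 (-1.48).

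LOC100737875 (member 10-like), which lies between LOC110259398 and SLC22A8, went the other way. It had 121, 129 and 134 counts in CN and 399, 231 and 248 in PA. On the TPM scale these were 32.9, 40.9 and 38.8 against 102, 63.0 and 69.3, so every PA embryo was above every CN embryo and PA1 was the highest. The means were 37.5 ± 4.14 in CN and 78.0 ± 20.8 in PA (SD, n = 3), 2.08-fold higher, with a log2 fold change of 1.15 (SE 0.24). Leaving out PA1 took the estimate to 0.83, under the fold threshold, and leaving out CN1 (1.14), CN2 (1.17) or CN3 (1.18) ended the call on the adjusted p-value. It carries the HNF4 core at the same 331 bases before its coding region as LOC100737764 and LOC100513779, which were lower in PA. Any part of this core in the differences was not tested.

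**Figure D3:**
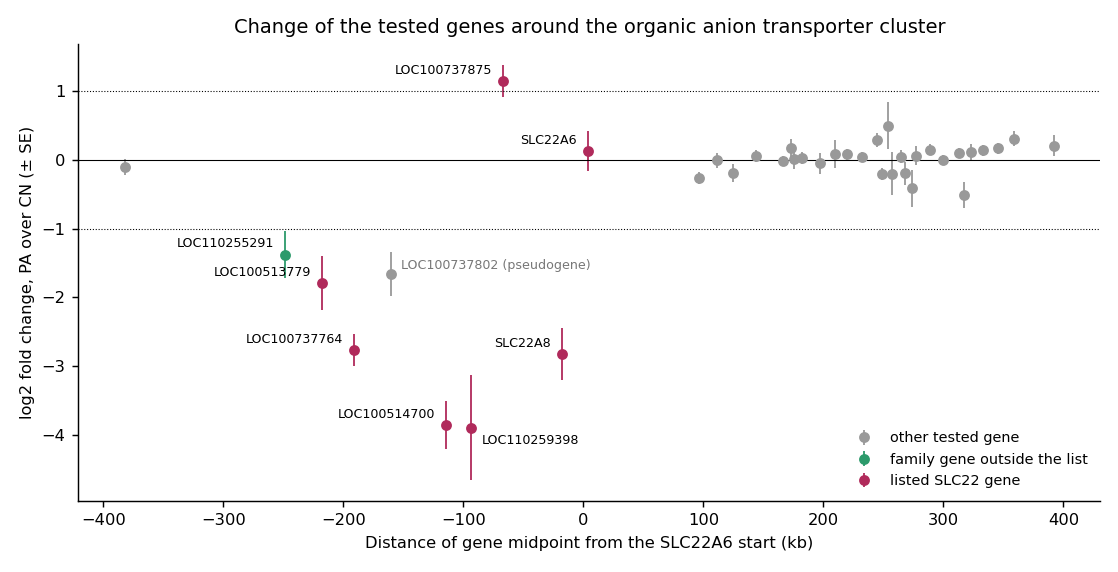
Fitted log2 fold change (PA over CN) with its SE for each tested gene, by distance of the gene midpoint from the SLC22A6 start in kb, with dotted lines at the fold threshold. The family genes spread from -3.90 to 1.15, and the 29 tested genes beyond SLC22A6 lie between -0.51 and 0.50.

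The pair at the far end of the chromosome differed less. SLC22A4, the ergothioneine transporter OCTN1, had TPM of 8.12, 7.27 and 14.5 in CN and of 6.96, 4.70 and 3.95 in PA. CN2 and PA1 nearly met, and the log2 fold change was -0.85 (SE 0.38) from 18 to 64 counts per embryo. SLC22A5, the carnitine transporter OCTN2, had TPM of 56.3, 75.0 and 65.6 in CN and of 44.3, 43.2 and 53.6 in PA. The ranges stood apart by a small gap between CN1 and PA3. The means of 65.6 ± 9.36 and 47.0 ± 5.73 (SD, n = 3) gave a log2 fold change of -0.41 (SE 0.12), the most precise of the 10. Neither gene passed both thresholds in any alternative fit.

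The order of the levels differed between the groups. In CN, SLC22A8 and LOC100737764 led and their ranges overlapped, SLC22A5 followed apart from both, and LOC100737875 came next, apart from SLC22A5. From LOC100737875 downwards each gene overlapped the next in order, through LOC100514700, SLC22A12, LOC110259398, SLC22A6 and SLC22A4 to LOC100513779. In PA, LOC100737875 led, apart from SLC22A5, which stood apart from the next 3, SLC22A8, SLC22A6 and LOC100737764, whose ranges overlapped. SLC22A4 stood below these, and LOC100513779, LOC100514700, LOC110259398 and SLC22A12 ended the order with overlapping neighbours. The TPM of the 10 genes summed to 390, 497 and 490 in CN and to 209, 153 and 196 in PA. LOC100737875 made up 8.19% ± 0.25 of that sum in CN and 41.7% ± 6.62 in PA (SD, n = 3), and SLC22A8 31.4% ± 4.49 and 10.2% ± 5.68.

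**Figure D4:**
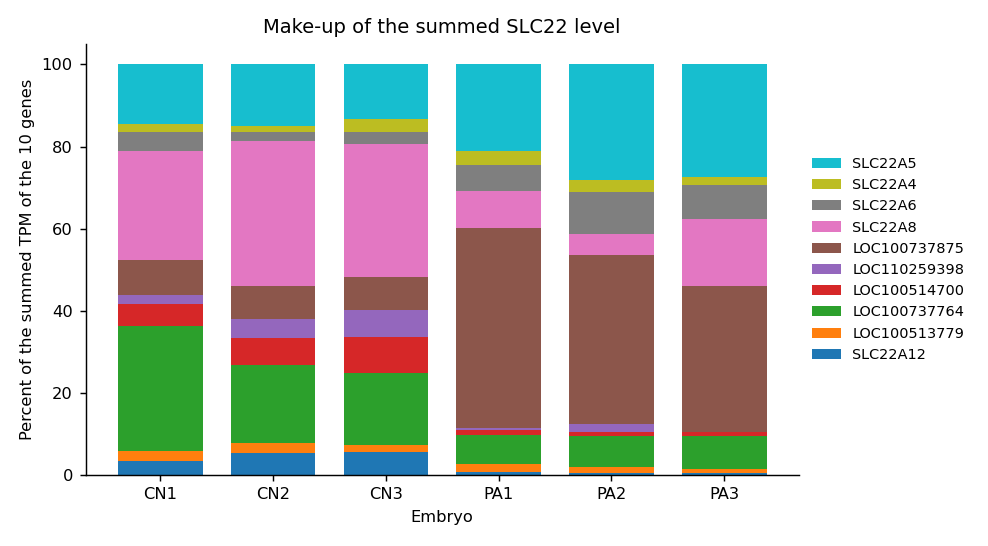
Share of each gene in the summed TPM of the 10 SLC22 genes, in percent, stacked for each embryo. LOC100737875 holds 35.4% to 48.6% in the PA embryos and 7.93% to 8.43% in the CN embryos.

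Transcript models divided the reads of 4 genes. SLC22A5 has 13 annotated transcripts, of which XM_003123912.5 held most of the TPM in every embryo, 60.0% to 72.9% in CN and 52.3% to 62.2% in PA. Its transcript XM_021085424.1 held 17.4%, 14.9% and 15.7% in CN and 27.3%, 28.0% and 24.3% in PA. These ranges did not overlap, and neither did its estimated counts, at 47.7 to 48.8 in CN and 59.8 to 64.2 in PA, while the TPM of the gene as a whole was lower in PA. It was picked after the values were seen. Of 2059 transcripts of tested genes with several transcripts, a mean of at least 10 counts and counts in every embryo, 11.4% had shares without overlap, and of the 3 such transcripts of the listed genes, all of SLC22A5, this was the 1. By counts the shares were 13.2% ± 1.01 and 22.4% ± 1.54 (SD, n = 3). With 3 embryos per group an exact permutation test cannot give a two-sided p below 0.1, and none was run.

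Among 7 transcripts of SLC22A8, XM_005660775.2 held 43.0%, 38.2% and 62.5% of TPM in CN and 0%, 24.9% and 11.0% in PA. The PA embryos had a different leading transcript each, from 30 to 124 counts, so the split is imprecise there. For SLC22A12, XM_003122570.4 held 49.4% to 81.4% in CN and was listed at 0 in each PA embryo, whose 3 to 7 counts fell to other models. All counts of SLC22A4 in a given embryo but CN2 and PA1 were assigned to XM_005661640.3. The remaining 6 genes have 1 annotated transcript each.

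Beyond the list, 6 loci of chromosome 2 carry a family 22 product. LOC110255291, next to LOC100513779, had TPM of 16.6, 17.6 and 24.2 in CN and of 9.88, 7.13 and 3.93 in PA. The groups did not overlap, with a log2 fold change of -1.38 (SE 0.35) and an adjusted p-value of 0.0557 with edgeR. It passed both thresholds with DESeq2, with library totals, with no expression filter and without PA1 (-1.79). SLC22A18, a transporter gene of an imprinted domain, which is maternally expressed in human and mouse, had TPM of 93.0, 118 and 111 in CN and of 218, 137 and 99.8 in PA. Only PA1 and PA2 exceeded the controls, and the log2 fold change of 0.61 (SE 0.30) had an adjusted p-value of 0.302 with edgeR. SLC22A11, SLC22A20, LOC102164585 and LOC100622132 had at most 13.2 counts in any embryo and did not enter the fit.

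Among the other genes of chromosome 2 with an SLC symbol, 33 of 37 were tested and 4 were lower in PA past both thresholds, which is 12.1%, against 2.78% of all genes tested, with a median log2 fold change of -0.06 against 0.02 over all genes tested. No other SLC gene was higher past both thresholds with edgeR, and DESeq2 called 4, all lower. SLC1A2, a glutamate transporter gene, was the 1 gene higher at an unadjusted p below 0.05. Its TPM was 11.2 to 14.9 in CN and 15.8 to 26.6 in PA, and its log2 fold change of 0.80 (SE 0.18, adjusted p = 0.0406, edgeR) missed the fold threshold. SLC34A1, the sodium-phosphate cotransporter of the proximal tubule, had TPM of 317, 504 and 420 in CN and of 66.3, 33.4 and 108 in PA, and its log2 fold change was -2.51 (SE 0.33, adjusted p = 0.00324, edgeR). SLC5A12, a lactate transporter of the same cells, fell by 2.10 on the log2 scale (SE 0.32, adjusted p = 0.00665, edgeR). The mitochondrial carrier gene SLC25A45 fell by 2.02 (SE 0.39, adjusted p = 0.0216, edgeR), and SLCO4C1, an organic anion transporter of another family, fell by 1.47 (SE 0.28, adjusted p = 0.0194, edgeR). SLC34A1 and SLC5A12 kept their calls when any embryo was left out and lost them in the fit with no expression filter, at the same -2.51 and -2.10. SLC25A45 lost its call without CN3 (-2.09), PA1 (-1.91) or PA3 (-1.88), and 0 of its PA embryos reached the count level of the filter. SLCO4C1 lost its call without CN1 (-1.26), CN3 (-1.43), PA2 (-1.54) or PA3 (-1.27).

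Of 66 genes within 250 kb of a listed gene, unlisted family loci included, 42 were tested and 2 were lower past both thresholds with edgeR, or 4.8%, against 2.78% of all genes tested, with a median log2 fold change of -0.03. DESeq2 called 4. LOC100737802, a pseudogene between LOC100737764 and LOC100514700, had TPM of 4.25, 5.03 and 4.68 in CN and of 0.774, 1.31 and 2.13 in the PA embryos, and its log2 fold change was -1.66 (SE 0.32, adjusted p = 0.0197, edgeR). It shares 139 of the 31-base stretches with LOC100737875, the gene that was higher in PA. PYGM, muscle glycogen phosphorylase, lies near SLC22A12 and fell by 1.02 (SE 0.14, adjusted p = 0.00493, edgeR). LOC100737802 did not pass both thresholds without CN2 (-1.64), CN3 (-1.66) or PA2 (-1.64), nor PYGM without CN1 (-0.995), CN2 (-0.94) or PA3 (-0.89), nor PYGM in the fit with no length offset. On the side of SLC22A6 away from the cluster, the 29 tested genes of other families whose midpoints lie up to 392 kb from its start had log2 fold changes between -0.51 and 0.50. With edgeR 0 of them passed both thresholds, 5 had an unadjusted p below 0.05, and DESeq2 called 0.

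Most of the tested proximal tubule markers were lower in PA along with 6 SLC22 genes. Of 12 listed markers 10 were found on the chromosome and 9 tested. Of the 9, 6 were lower in PA past both thresholds (SLC34A1, SLC5A12, TMEM174, DMGDH, CDHR2 and CDHR5), or 66.7%, against 2.78% of all genes tested. The median log2 fold change of the 9 was -2.10. The marker lists, here and for other tissues below, were written with earlier results of these data known, so nothing is read from this share. TMEM174 fell by 2.65 (SE 0.47, adjusted p = 0.0154, edgeR), DMGDH, an enzyme of choline breakdown, fell by 2.84 (SE 0.34, adjusted p = 0.00208, edgeR), and the brush border cadherins CDHR2 and CDHR5 fell by 2.10 (SE 0.25) and 1.98 (SE 0.13). Of these calls only that of TMEM174 was lost when an embryo was left out, at -2.49 without CN3. SLC23A1, BHMT and CTXN3 did not pass, at -0.88, 0.16 and 0.32. ACY3 was near 0 in every embryo and was not tested. Summed TPM of the 10 markers was 906 to 1254 in CN and 188 to 451 in PA, and PA2 was the lowest, as it was for SLC22A8. The part of these markers in the SLC22 differences was not tested.

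**Figure D5:**
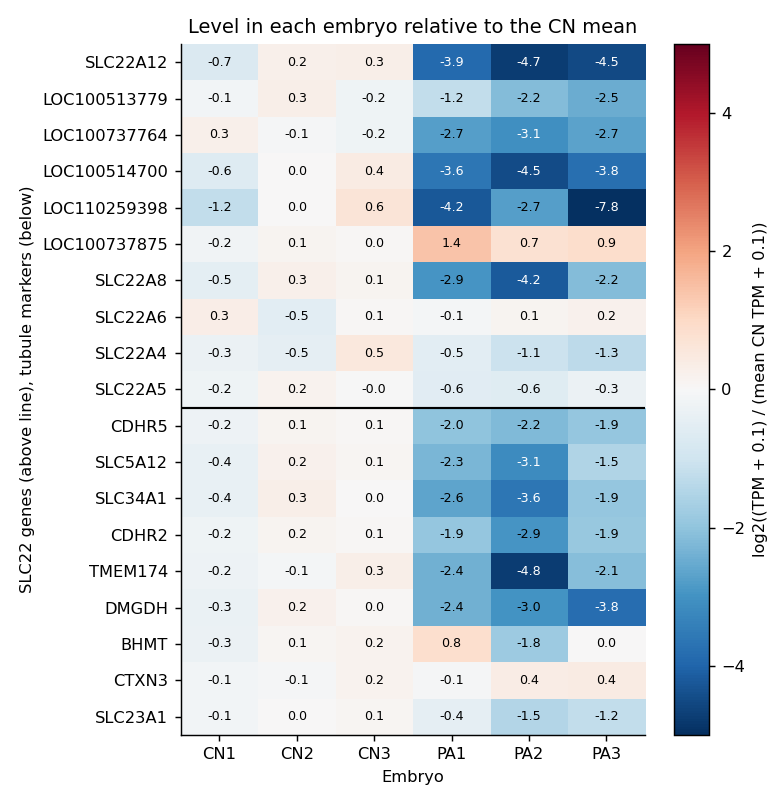
TPM of each embryo relative to the CN mean, as log2 with a pseudocount of 0.1, for the 10 SLC22 genes (above the line) and the 9 tested tubule markers (below). In all 3 PA embryos the 6 SLC22 genes and 6 markers that passed both thresholds as lower are below the CN mean, as are SLC22A4, SLC22A5 and SLC23A1 by less, while LOC100737875 is above it and SLC22A6 near it. The colour scale is cut at its ends, and LOC110259398 in PA3 is at 0 TPM.

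Other tissues gave mixed values. WT1, which marks glomeruli and the lining of the body cavity, was lower by 0.47 on the log2 scale (SE 0.09, adjusted p = 0.0217, edgeR), at 129 to 164 TPM in CN and 93.6 to 109 in PA. Of 5 muscle genes TNNI2 was lower past both thresholds at -1.34, and DESeq2 called 1. All 5 were negative with an unadjusted p below 0.05 and a median log2 fold change of -0.75, and MYBPC3 had an adjusted p of 0.00677 with edgeR at -0.98. Their summed TPM was 1163 to 1274 in CN and 612 to 765 in PA. Of 7 liver genes 0 passed with edgeR, 0 had an unadjusted p below 0.05 and DESeq2 called 0, and the summed TPM of 6517 to 7686 in CN and 5431 to 8276 in PA overlapped. Of 3 erythroid genes 0 passed with edgeR, 2 had an unadjusted p below 0.05 and DESeq2 called 0, with summed TPM of 260 to 441 and 205 to 261. Gut genes summed to 0.205 to 1.02 TPM in CN and 0.437 to 0.660 in PA.

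Levels of the SLC22 genes were also set against the tubule marker SLC34A1, a comparison made after the values were seen. SLC22A8 TPM was 32.7%, 34.9% and 37.7% of SLC34A1 TPM in CN and 28.4%, 23.6% and 29.5% in PA. Its 7.45-fold lower level became a 1.29-fold lower ratio. Of the unlisted genes tested, SLC34A1 had the pattern most similar to SLC22A8 in these embryos (r = 0.999). The difference of SLC22A8 therefore had to shrink on this scale, and nothing is read from it. LOC100737764 overlapped between groups on this scale, at 18.8% to 37.7% in CN and 14.5% to 35.2% in PA. SLC22A12 stayed lower, at 4.26% to 6.56% in CN and 0.823% to 2.23% in PA, and so did LOC100514700, at 6.42% to 10.2% and 2.09% to 4.04%. SLC22A6 and LOC100737875 were higher relative to SLC34A1 in every PA embryo, at 15.1% to 46.9% against 1.96% to 5.65% and at 64.0% to 188% against 8.11% to 10.4%. SLC22A5, at 14.9% to 17.8% in CN and 49.5% to 129% in PA, and SLC22A4, at 1.44% to 3.46% and 3.64% to 14.1%, were higher on this scale as well, so that 4 genes were higher and 3 (SLC22A8, SLC22A12 and LOC100514700) lower without overlap. As SLC34A1 was itself lower in PA, 96.7% of the other genes tested were higher without overlap on this scale and 0.424% lower, and nothing is read from the counts. LOC100513779 and LOC110259398 overlapped.

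The 3 unlisted genes with the most similar pattern were found by Pearson's r of log2(TPM + 0.1) over the 6 embryos, which fall into 2 groups, so that any gene that differs between PA and CN scores high. For SLC22A8 these were SLC34A1 (r = 0.999), SLC5A12 (r = 0.999) and NR2F6 (r = 0.996). For SLC22A12 they were ESRRA (r = 0.997), CDHR5 (r = 0.993) and SIGIRR (r = 0.993). For SLC22A6, whose groups overlapped, they included the ribosomal protein gene RPS15 (r = 0.942) and LOC100519130 (r = 0.892). The values describe these embryos only, and genes of one library share its depth.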

How the data were processed

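RNA-seq tables of 3 PA and 3 CN whole embryos at day 21 were used, grouped by the sample titles. Libraries were made with an Illumina TruSeq kit that does not mark strand. The submitters' processing notes name STAR 2.7.5, Picard, SAMtools, Salmon 1.3.0 and the build Sscrofa11.1. The authors deposited estimated counts per transcript, with no normalization. TPM, deposited beside them, has the same sum in every embryo. Effective lengths from these tables gave the length offset. Transcripts (81496 per embryo, 6906 on chromosome 2) were joined to genes with the RefSeq annotation of Sscrofa11.1, and 174 that it lacks were placed by their neighbours in the table.

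Gene counts were summed, rounded and fitted in R 4.3.3 with edgeR 4.0.16 (TMM factors, length offset, filterByExpr with a minimum count of 10 and total of 15, robust quasi-likelihood test, two-sided, Benjamini-Hochberg adjustment). Positive log2 fold changes are higher in PA. TPM ratios are of group means. The alternatives were DESeq2 1.42.0, library totals, no length offset, other filters, the replicate number as a block and leaving out each embryo. On simulated counts for this comparison edgeR called 193 of 194 changed genes and 2 unchanged ones among 1631. The simulation gave all genes the same small dispersion and equal lengths, with changes well above the fold threshold. Some genes here spread more, such as SLC22A8 in PA, with an SD of 61.6% of its mean TPM. The simulated rates therefore do not give the error rates in these embryos. Within groups no 2 embryos were close enough to be 1 library deposited under both names (chi-square per degree of freedom 5.19 to 83.8). Promoter windows, 31-base stretches and translated coding regions came from the Sscrofa11.1 genome, aligned with Biopython 1.88.

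The members, gene lists and tests were chosen with earlier results of these data known. Named genes were all 10 members, up to 5 genes per direction of each list past both thresholds with the largest change, the markers with the highest levels, and the 3 most similar genes of SLC22A6, SLC22A8 and SLC22A12. For SLC22A6, 1 of these similar genes is not reported here. Bisulfite data of the study were not used here.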

Additional observations from a re-analysis of the deposited data

How the results depend on the processing

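The signs of all member log2 fold changes were kept in every alternative fit except that of SLC22A6, which ranged from -0.10 without CN2 to 0.42 without CN1 (0.13 with all embryos). Requiring 10 counts in every embryo left 6 members testable, of which 3 passed both thresholds, since SLC22A12, LOC100513779, LOC100514700 and LOC110259398 fall under that filter. DESeq2, library totals, no length offset and no expression filter each gave 7. Leaving out 1 embryo gave 4 to 6 members, 2 to 5 other SLC genes, 0 to 3 neighbour genes and 5 to 7 tubule markers. With no expression filter other SLC genes fell to 2 and tubule markers to 4, SLC34A1 and SLC5A12 being lost from both. Neighbour genes numbered 4 with DESeq2, 1 with no length offset, 4 with no expression filter and 1 with 10 counts in every embryo. Over all genes the count of 48 was 77 with no expression filter and 34 to 52 without 1 embryo.

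With a replicate block, 6 members passed, LOC100513779 being lost at -1.84, and 3 other SLC genes, SLC25A45 being lost at -1.98. The groups share replicate numbers but not embryos or dams by any label, and deviations of same-numbered embryos correlated at 0.245, 0.120 and 0.038, so the samples were not treated as paired. Depth limits SLC22A12, LOC110259398 and LOC100514700 in PA, where counts reach 14.6 at most.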

Other observations

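The family has 10 further annotated loci on other chromosomes, and each was listed at 0 in all 6 tables, while the deposited counts lie almost wholly on chromosome 2. They were not analysed here.

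CN1 had the lowest control TPM for 6 of the 10 genes, SLC22A8, SLC22A12, SLC22A5, LOC100514700, LOC110259398 and LOC100737875, and the highest for 2, SLC22A6 and LOC100737764. Over all 1652 genes tested CN1 was the lowest control for 68.1% and the highest for 18.0%, so its place for the SLC22 genes is that of most genes. PA2 had the lowest PA TPM for 6 and the highest for 1, LOC110259398, against 26.7% and 27.4% of all genes tested. The spread between PA embryos was widest for SLC22A8 among genes measured in all of them, with a highest value 4.05 times the lowest, against 1.70 times in CN. The reverse held for SLC22A6, at 1.22 times in PA and 1.82 times in CN. These are values of 3 embryos per group, and no test of them was made.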
